A study of Caenorhabditis elegans with 12 samples.

Results

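The small nuclear RNA genes of the nematode Caenorhabditis elegans were taken as all genes of the type snRNA in the RefSeq gene table of the assembly WBcel235, on the 6 nuclear chromosomes. There were 129 of them among 46890 genes of all types. The study mapped genome binding by chromatin immunoprecipitation and sequencing (ChIP-seq) in whole-worm extracts, with an antibody against green fluorescent protein (GFP). Its 12 samples form 4 groups of 3, an input and a precipitate from each of 2 strains, the wild type N2 and FQ237, the ets-5-gfp strain of the series title. ETS-5 belongs to the ETS transcription factors and is known for its role in the gas-sensing BAG neurons of the head. All worms were grown on E. coli OP50. The labels do not say how the tag was introduced, in how many copies, or how old the worms were.

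Each of the 3 ETS-5 precipitates has a list of windows, all 400 bp wide, and a window was counted at a gene when its centre lay in the gene or at most 200 bp from either end. The wild-type precipitates and the inputs were not analysed here, so whether N2 worms give windows at the same genes is not known from these values. With lists from 1 group, no test between conditions was possible, and the counts below are descriptions. The lists held 3811, 2915 and 3697 windows in replicates 1 to 3. They carry no read counts or scores, so the depth behind a window is unknown, and the meaning of the line order is not stated. Replicate 3 stood apart from replicates 1 and 2 in many of the results at snRNA genes below, but not in all of them.

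Small nuclear RNAs are short RNAs that work as ribonucleoprotein particles in splicing. In nematodes the class includes the spliced leader (SL) RNAs, which donate a short leader to the start of many messenger RNAs by trans-splicing. SL1 is the common leader, while SL2 is used mainly for downstream genes of operons. Most of these genes are transcribed by RNA polymerase II and those of U6 by RNA polymerase III, in each case with the help of the snRNA activating protein complex.

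By name, the members fell into 12 SL1 RNA genes (sls-1), 18 SL2 RNA genes (sls-2), 10 SmY RNA genes (smy, for small RNAs linked to trans-splicing), sup-6 and sup-39, and 86 genes known in the table only by a sequence name. The genes sup-6 and sup-39 were found as splicing suppressors and encode U1 RNA, which recognises the 5' splice site. The remaining member, mir-1831, is 22 bp long, lies inside sup-39 and carries the name of a microRNA, which goes against its type in the table. The table names no U2, U4, U5 or U6 gene, so the 86 genes are described by length and not by the RNA they make. Of the 129 genes, 67 overlapped a protein-coding gene and 39 overlapped an entry of the type ncRNA. Many snRNA genes occur in near-identical copies, and reads can be shared between such copies, so windows there are uncertain as to the copy.

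Windows lay at 29 of the 129 genes in at least 1 list, and at the other 100 in none. Among genes of all types, 3284 of 46890 had a window in at least 1 list. Replicate 1 had 10 windows at snRNA genes, replicate 2 had 5 and replicate 3 had 28, or 14.3 ± 12.1 (SD, n = 3). These were 0.262% of the list of replicate 1 (exact 95% binomial interval 0.126% to 0.482%), 0.172% of that of replicate 2 (0.0557% to 0.400%) and 0.757% of that of replicate 3 (0.504% to 1.09%). The interval of replicate 3 did not overlap those of the others, while the intervals of replicates 1 and 2 did. The intervals reflect counting error only, on the assumption that windows are independent. That does not hold at the near-identical SL1 RNA copies, which had 5, 1 and 9 of these windows. Each interval is of 1 list and does not measure the spread between replicates. Uniform placement of the same windows on the same chromosomes would give 2.28, 1.77 and 2.24 windows on average, so the lists held 4.39, 2.83 and 12.5 times that number. Many of these windows also lay within 200 bp of a gene of another type, and without those 5, 2 and 8 were left.

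**Figure D1:**
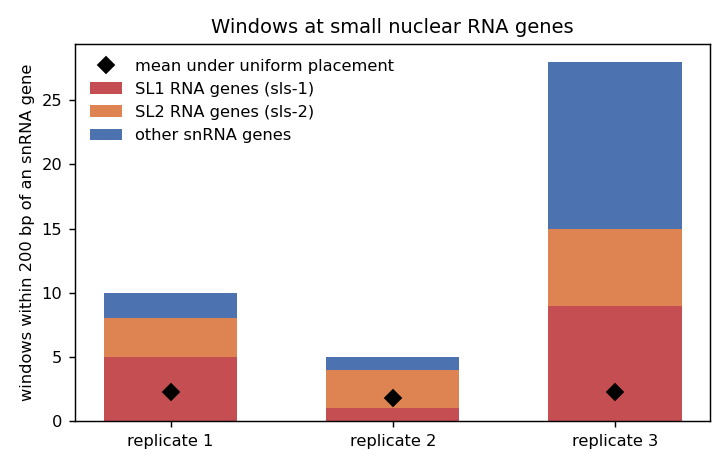
Number of windows (y axis) within 200 bp of an snRNA gene in each of the 3 ETS-5 precipitates, coloured by the name of the nearest gene, with diamonds for the mean number under uniform placement. SL RNA genes made up 8 of 10, 4 of 5 and 15 of 28 windows.

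Counted by gene, 10 snRNA genes had a window in replicate 1 (7.75%), 5 in replicate 2 (3.88%) and 29 in replicate 3 (22.5%). Over all genes of the table the shares were 4.80%, 3.75% and 4.99%, and over protein-coding genes, which are mostly longer, they were 7.10%, 5.36% and 7.26%. The share of snRNA genes in replicate 2 was thus near that of all genes and below that of protein-coding genes. In replicate 1 it was above that of all genes but near that of protein-coding genes. In replicate 3 it was above both. The share over all genes is lowered by 15363 genes of the type piRNA, of which 0.280%, 0.156% and 0.169% had a window. Replicate 3 had 1 gene more than windows because sup-39 and mir-1831 share a window.

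Every snRNA gene with a window in replicate 1 or 2 also had a window in replicate 3. All 3 replicates had a window at 5 genes, replicates 1 and 3 alone at 5, and replicate 3 alone at 19. These counts depend on the 200 bp limit. At W05B2.8, sls-1.11 and F54D8.7, counted among the 19, the window of replicate 3 overlapped a window of another replicate centred beyond the limit. Over all genes, 63.4% of those with a window in replicate 1 and 69.7% of those with a window in replicate 2 also had a window in replicate 3. Of the genes of all types with any window, 24.6% had it in replicate 3 alone, against 65.5% of such snRNA genes. A window in all 3 replicates was found at 34.1% of the former and 17.2% of the latter.

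The centres of the windows lay close to the genes. They fell inside the gene itself for 9 of 10 windows of replicate 1, 3 of 5 of replicate 2 and 16 of 28 of replicate 3, where uniform placement within the counted span would put 23.5% inside. This did not hold for the genes known only by a sequence name. Of their 11 windows in replicate 3, those at F08G2.10 and C28A5.7 alone were centred inside the gene. Their windows in replicates 1 and 2, at F38E11.10, were centred outside it. Outside the gene, from its ends to 200 bp, lay 1, 2 and 12 windows, against 1.73, 1.35 and 1.71 for uniform placement. Between 200 and 500 bp from a gene lay 4, 4 and 2 windows, against 2.42, 1.87 and 2.37, which was 1.66, 2.14 and 0.842 times that number. Between 500 and 1000 bp from a gene lay 3, 3 and 4 windows, against 3.52, 2.73 and 3.47 for uniform placement. Between 1000 and 2000 bp lay 8, 5 and 4, against 6.33, 4.90 and 6.23. The gene table gives no strand, so the side of a window relative to the start of transcription is not known.

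**Figure D2:**
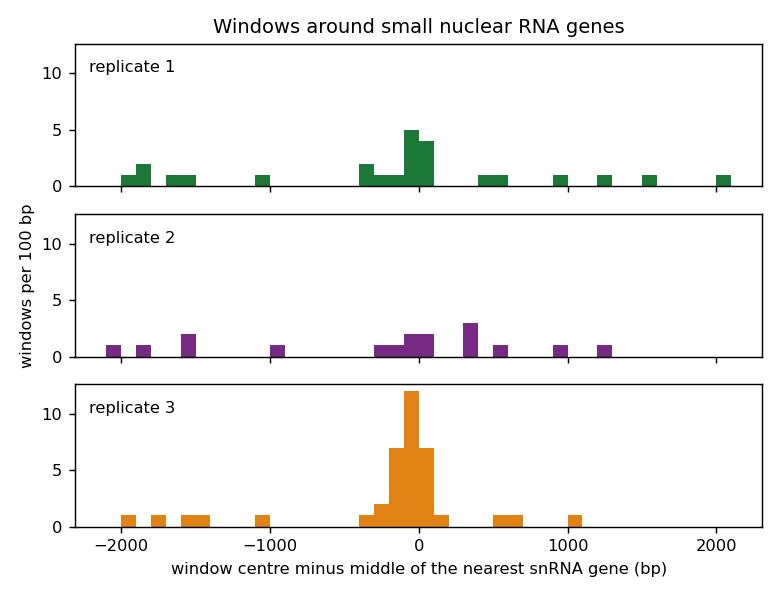
Position of window centres relative to the middle of the nearest snRNA gene in bp (x axis, bins of 100 bp) against the number of windows (y axis), by replicate, for windows within 2000 bp of a gene. Within 200 bp of a gene lay 10, 5 and 28 windows of replicates 1 to 3, of which 9, 3 and 16 were centred inside the gene.

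In each list the earliest window at an snRNA gene was at an SL2 RNA gene, but the group was not early as a whole. In replicate 3 its median line was at 13.6% of the list, against 3.27% for the SL1 RNA genes. Of the 18 SL2 RNA genes, 3 had a window in all 3 replicates and 6 in replicate 3. These were 3, 3 and 6 windows in replicates 1 to 3, against 0.352, 0.274 and 0.364 for uniform placement. At sls-2.2 on chromosome II the windows of replicates 1 to 3 stood at lines 462, 329 and 22. The merged region spanned 5543437 to 5543897 as positioned by the files, for which no build is stated, with starts counted from 1. All 3 centres lay inside the gene.

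At sls-2.4 on chromosome I the lines were 866, 770 and 34, and the region spanned 4172019 to 4172466, with all 3 centres inside the gene. At sls-2.1 on chromosome II the lines were 1185, 1335 and 38, and the region spanned 5844621 to 5845071. Its centres lay 0 bp, 44.5 bp and 18.5 bp from the gene. At each of these 3 genes replicate 3 placed its window in the first 1.03% of its list, ahead of both others. A further SL2 RNA gene, sls-2.8, had 1 window, at line 965 of replicate 3. The gene sls-2.3 lies near sls-2.2 and had no window of its own within 200 bp.

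The SL1 RNA genes lie in a tandem array on chromosome V, alternating with 5S ribosomal RNA genes (rrn-4). In the gene table the array held 12 SL1 RNA genes over 13954 bp, with a median step of 976 bp between starts. Within 200 bp of an SL1 RNA gene lay 5 windows of replicate 1, 1 of replicate 2 and 9 of replicate 3. Uniform placement would give 0.176, 0.136 and 0.163. The copies are near-identical and the worm genome holds more of them than the table lists, so the windows count positions in the reference and not independent sites.

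In replicate 3 the windows kept step with the array. Their centres lay between 1.5 bp and 88.5 bp from the lower end of the gene, and 8 of the 9 stood between lines 97 and 141. These were at sls-1.11, sls-1.2, sls-1.4, sls-1.9, sls-1.3, sls-1.8, sls-1.10 and sls-1.7. The window at sls-1.12, at one edge of the array, stood at line 508.

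In replicate 1, 5 of these 9 genes had a window, and all 5 appeared late in the list. They stood at line 2653 at sls-1.4, line 2930 at sls-1.10, line 2985 at sls-1.12, line 3417 at sls-1.8 and line 3599 at sls-1.3. Replicate 2 had its window at sls-1.4, at line 1340. The other 2 windows of replicate 2 in the array, at lines 2715 and 2789, lay 16.5 bp and 7.5 bp from a 5S gene and 311.5 bp and 302.5 bp from an SL1 RNA gene.

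**Figure D3:**
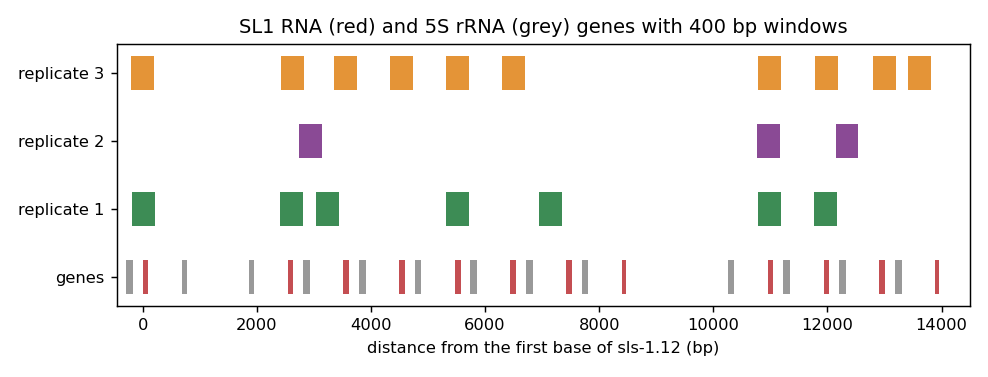
The SL1 RNA array: distance in bp from the first base of sls-1.12 (x axis), with SL1 RNA genes in red and 5S rRNA genes in grey in the bottom row and the 400 bp windows of each replicate above. The array and 1000 bp on each side held 7, 3 and 10 windows of replicates 1 to 3.

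Beyond the SL RNA genes, replicates 1 and 2 had few windows at snRNA genes. The other 99 genes had 2, 1 and 13 windows, against 1.75, 1.36 and 1.72 for uniform placement. The ratio was thus 1.14 in replicate 1, 0.736 in replicate 2 and 7.57 in replicate 3. Without the SL1 RNA genes alone, the ratios were 2.38, 2.45 and 9.13.

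Among the other genes, F38E11.10 on chromosome IV, which is 122 bp long, had a window in all 3 replicates. The lines were 2297, 1038 and 735, and the centres lay 53.5 bp, 57.5 bp and 90.5 bp from the gene. The region spanned 9444352 to 9444788, and its mean centre lay 216 bp from hsp-12.3, a small heat shock protein gene. That gene is 28 bp from F38E11.10, so the region lies close to both. At W05B2.8 on chromosome III, a 102 bp gene inside the dynein heavy chain gene dhc-4, the lines were 1008, 1907 and 95. The 200 bp limit passed between these windows, with centres at 200.5 bp, 213.5 bp and 143.5 bp, so the window of replicate 3 alone was counted at the gene.

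The U1 gene sup-6 had windows at line 3104 of replicate 1 and line 221 of replicate 3, both centred inside the gene. Replicate 2 had none there. The other gene named for suppression, sup-39, had 1 window, at line 1122 of replicate 3. No SmY RNA gene of the 10 had a window in any list, where uniform placement would give 0.151, 0.119 and 0.143 windows.

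Of the 86 genes with a sequence name only, 11 had a window, all 11 in replicate 3. They held 1, 1 and 11 windows in replicates 1 to 3, against 1.56, 1.21 and 1.53 for uniform placement. By length, windows lay at 4 of the 30 genes of 101 to 108 bp, 2 of the 14 of 117 to 126 bp, 1 of the 7 of 142 to 156 bp, 2 of the 10 of 163 to 170 bp and 2 of the 19 of 185 to 187 bp. None lay at the 6 genes of 80 to 97 bp. These length classes are small, have no share over all genes beside them, and were not compared by a test. Counted within 200 bp, all of the 11 genes but F38E11.10 had the window in replicate 3 alone. After W05B2.8, the earliest of these were at F54D8.7 (line 325), C52E4.8 (line 690), C28A5.7 (line 810), F32B5.9 (line 928) and R07E5.16 (line 998).

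The place of these windows in the lists also differed between replicates. As a share of the list, the median line was 73.2% in replicate 1, 35.6% in replicate 2 and 11.3% in replicate 3. In the first 10% of the lines lay 14 of the 28 windows of replicate 3, and none of those of replicates 1 and 2. Of these 14, 8 were at SL1 RNA genes and 3 at SL2 RNA genes. Without the SL1 RNA genes the medians were 31.1%, 31.01% and 25.1%, so the late median of replicate 1 and much of the early median of replicate 3 went with the array.

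**Figure D4:**
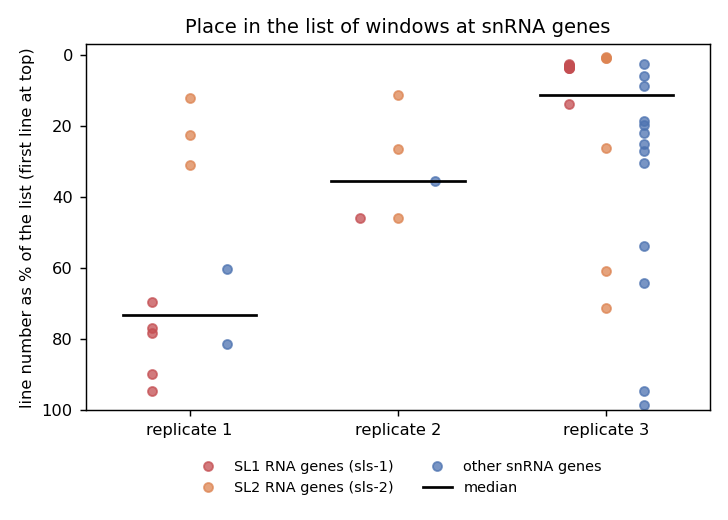
Line number of each window at an snRNA gene as a percentage of its list (y axis, first line at the top), by replicate, coloured by gene name, with the median as a bar. The medians are 73.2%, 35.6% and 11.3%, and SL1 RNA windows are late in replicate 1 and early in replicate 3.

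Regions that held a window of all 3 replicates, merged where windows overlapped, were found at 7 snRNA genes (5.43%, against 2.50% of all genes and 3.52% of protein-coding genes). They were sls-2.2, sls-2.4, sls-2.1, W05B2.8, F38E11.10, sls-1.4 and sls-1.3. The region at sls-1.3 joined windows of replicates 1 and 3 at the SL1 RNA gene with a window of replicate 2 at the neighbouring 5S gene. A further region of all 3 replicates, at 17120560 to 17121902 on chromosome V, joined 5 windows over sls-1.10 and sls-1.11. It was not counted, since its mean centre lay 354.3 bp and 524.7 bp from these genes. Uniform placement of the 1788 shared regions would put 1.06 at snRNA genes. A share near 5.43% was not particular to snRNA genes. It was 5.17% at entries of the type ncRNA and 5.67% at those of the type lncRNA. At ribosomal RNA genes it was higher, with 2 of 20. Lower shares were found at small nucleolar RNA (2.31%), microRNA (1.15%) and transfer RNA genes (0.817%). Pseudogenes (0.677%) and piRNA genes (0.0911%) were also lower. These shares were not compared by a test. Regions of both other replicates lay at snRNA genes in 12 cases without replicate 2, 6 without replicate 3 and 9 without replicate 1. How many such regions each pair of replicates had over all genes is not given, so these counts were not compared.

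At all 7 regions the line stood earlier, as a share of the list, in replicate 3 than in both other replicates. Over all shared regions this was so for 32.8%. The median place of the 7 was 31.1%, 45.8% and 2.57% in replicates 1 to 3, while over all shared regions it was 27.7%, 36.3% and 36.3%.

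**Figure D5:**
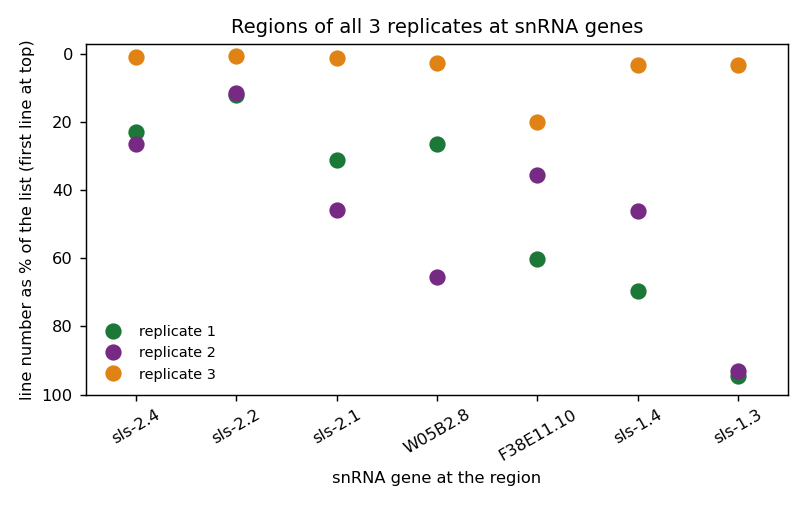
Line number as a percentage of the list (y axis, first line at the top) of the 7 regions found in all 3 replicates at snRNA genes, 1 column per gene and 1 colour per replicate. Replicate 3 is at the top of every column, with a median place of 2.57%.

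Other short RNA genes were set beside these, without a test. Windows at transfer RNA genes came to 1.33, 1.06 and 6.23 times the number of uniform placement in replicates 1 to 3. At small nucleolar RNA genes the ratios were 1.45, 2.07 and 4.07, and at microRNA genes 1.08, 1.99 and 2.49. At protein-coding genes they were 0.704, 0.651 and 0.701. At ribosomal RNA genes, whose 20 members include the 5S genes of the array, they were 1.62, 6.44 and 11.5 on 1, 3 and 7 windows, of which some are also counted at SL1 RNA genes. At entries of the type ncRNA they were 3.80, 4.11 and 3.80. Replicate 3 had the highest ratio at transfer, small nucleolar, micro and ribosomal RNA genes as at snRNA genes, and did not stand out at ncRNA entries or protein-coding genes. Its windows at ribosomal RNA genes had a median place of 16.1% and those at transfer RNA genes of 39.4%, against 11.3% at snRNA genes.

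Few protein genes of snRNA transcription, particle assembly and splicing had windows. Their share was below that of all protein-coding genes in replicates 1 and 2 and above it in replicate 3. These differences rest on few genes and were not tested. Of 74 listed genes 67 were in the table, and 3, 2 and 8 of them had a window within 200 bp in replicates 1 to 3 (4.48%, 2.99% and 11.9%, against 7.10%, 5.36% and 7.26% of protein-coding genes). A shared region lay at ints-4 alone (1.49% against 3.52%), at lines 1973, 835 and 441. It encodes a subunit of the Integrator complex, which cuts the 3' ends of snRNA transcripts. Of 11 Integrator genes in the table, 3 had a window in at least 1 list, against 3284 of 46890 genes of all types. The same share over protein-coding genes is not given, so no excess is read from this small count. Besides ints-4, these were ints-3, at line 2656 of replicate 2 and line 1327 of replicate 3, and ints-8, at line 243 of replicate 3 alone. In replicate 3, smn-1, the gene of the assembly factor SMN, had a window at line 2689, and the Sm protein gene snr-6 at line 1412. The other genes with a window were lsm-6, sna-3 and uaf-1 in replicate 3, and sftb-6 and teg-4 in replicate 1.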

How the data were processed

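The authors deposited 1 list per ETS-5 precipitate, with a chromosome, start and end per line and no header. These positions are no measured signal, and no score is given, per the file contents. The submitters' processing notes name Bowtie2 and MACS2. For the settings, genome build, control and threshold, nothing was stated. Starts were taken as counted from 0. Distances to genes assume that the files match WBcel235, which could not be settled from the lists. Windows were shifted by 100 bp as an alternative.

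Windows overlapping by at least 1 bp were merged, with the average of the window centres as the centre of a region. Means under uniform placement were computed from the length within 200 bp of the genes on each chromosome. Replicate numbers come from the titles, and the samples may be technical replicates. The members, gene lists and comparisons were chosen with earlier results of these data known. Genes were named if near a shared region, then with windows in 2 replicates, then the 10 earliest in 1 replicate. The same was done for protein genes of the pathway, of which all but ints-4 were named after their values were seen, as were sls-2.3 and sup-39. Planned counts of promoter motifs needed sequences and were not run. The counting steps were tested on simulated data. Analyses used Python 3.11.15, numpy 2.4.6, pandas 2.3.3 and scipy 1.17.1.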

Additional observations from a re-analysis of the deposited data

How the results depend on the processing

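Of 132 values under other settings, 97 stayed within 1.5 times the reported count or ratio, or within 1 SD between replicates (31.2 percentage points) of the reported median place, and 35 did not. The limit for the median place is the SD of the 3 reported medians, so it is wide and seldom passed. In replicate 3, beside 11.3%, it took in 3.25% without windows near another gene type and 25.1% without SL1 RNA genes. Shifts of 100 bp, starts counted from 1, an overlap of 100 bp and placement outside protein-coding genes moved none past these limits. With 100 bp the ratios to uniform placement in replicates 1 and 2 were 7.06 and 4.55. With 500 bp replicate 2 had 9 windows at 10 genes and the ratio of replicate 3 was 6.49. With 1000 bp the ratios were 2.07, 1.88 and 4.20, replicate 1 had 17 windows at 21 genes, replicate 2 had 12 at 15, and 11 shared regions lay at 14 genes. In the first 50% of lines, replicate 1 had 3 windows at 3 genes, 3 shared regions lay at 3 genes, and the ratios were 2.63, 5.80 and 19.7. The median place was not recomputed there, since halving the list fixes its range. Leaving out windows near another gene type, many of them at ncRNA entries over the same gene, left 5, 2 and 8 windows at as many genes. With regions of at least 2 replicates, 11 lay at 11 genes, and leaving out each replicate gave 6 to 12 regions at 6 to 12 genes. Without the SL1 RNA genes, a setting chosen after seeing the data, replicate 1 had 5 windows at 5 genes, a ratio of 2.38 and a median place of 31.1%. Asking for a window of each replicate within 200 bp, also chosen then, gave 5 genes. The cause of these changes was not tested beyond what each setting does by construction. No paired analysis was possible because lists of 1 group alone were used. Planned shares of promoter motifs were not run. The depth behind the windows is unknown.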

Other observations

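Further snRNA genes had a window in replicate 3 alone and were picked here after their values were seen. T27E4.11 and T27E4.10 on chromosome V flank the small heat shock genes hsp-16.1 and hsp-16.11. Their windows stood at lines 3495 and 1986, with centres 103.5 bp and 129.5 bp from the gene. C52E4.8, at line 690, lies between the proteasome gene rpt-1, its nearest protein-coding gene at 273 bp, and the Sm protein gene snr-4, which had no window within 200 bp. The later windows of replicate 3 were at sls-2.9 (line 2250), F08G2.10 (line 2373), sls-2.14 (line 2637) and F08G2.11 (line 3636).

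Some windows lay just beyond the 200 bp limit. In replicate 3 these were at smy-1, 254.5 bp away at line 2266, and at sls-1.1, 270.5 bp away at line 1668. In replicate 1 they were at sls-1.6 and sls-1.11, at lines 3724 and 3775. In replicate 2 a window at line 2885 lay 267.5 bp from F54D8.7.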
